A study of Mus musculus with 10 samples.

Results

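Retinal ganglion cell markers were followed in bulk RNA sequencing of mouse retina, as 10 genes chosen by symbol: Pou4f1, Pou4f2, Isl2, Rbpms, Thy1, Sncg, Nefl, Nefm, Nefh and Opn4. All 10 were found among the 19999 genes of the deposited count table, and all 10 passed the filter on low counts that left 16852 genes to test. The libraries came from retina of BALB/c mice, an albino strain, 5 from a light-induced damage model and 5 from controls. Libraries of either group are named as vehicle, and what the vehicle was is not given. The design text also names an agent, A74, and all 10 libraries described here are vehicle libraries. Genotype, light dose, time after exposure, age and sex are not given in the labels. Nor do they tie a library to an animal, so the p-values below rest on library spread that may be technical. The comparison asked whether transcripts that mark ganglion cells differed between light-damaged and control retina.

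Ganglion cells are the output neurons of the retina. Their cell bodies lie in the innermost cell layer and their axons form the nerve fibre layer and the optic nerve, while light damage is known above all for killing photoreceptors at the opposite side of the tissue. The genes fall into 4 roles. Pou4f1, Pou4f2 and Isl2 encode homeodomain transcription factors of ganglion cell fate and projection. Rbpms, an RNA binding protein, Thy1, a glycolipid-anchored surface protein, and Sncg, gamma-synuclein, serve as general markers of the cell type. Nefl, Nefm and Nefh encode the light, medium and heavy neurofilament chains of the axon. Opn4 encodes melanopsin, the photopigment of the intrinsically photosensitive ganglion cells. Several of these genes are also used by other cells: Thy1 is carried by T cells in the mouse, and neurofilaments are made by horizontal cells and by large neurons in general.

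The promoters of the 3 transcription factors are shown because these genes help to set ganglion cell identity. They are RefSeq windows on the GRCm38.p6 build, from 250 bases before to 50 after the start site, written 5′ to 3′ in the direction of the gene. Capitals mark matches to 4 motifs searched on both strands. The motifs were the cAMP response element TGACGTCA, the E-box CAGCTG, the homeodomain core TAATTA and the TATA box TATAAA. No marked matches overlapped. Pou4f1 lies on the minus strand at chr14:104467950-104468249, Pou4f2 on the minus strand at chr8:78436598-78436897 and Isl2 on the plus strand at chr9:55540899-55541198.
Pou4f1: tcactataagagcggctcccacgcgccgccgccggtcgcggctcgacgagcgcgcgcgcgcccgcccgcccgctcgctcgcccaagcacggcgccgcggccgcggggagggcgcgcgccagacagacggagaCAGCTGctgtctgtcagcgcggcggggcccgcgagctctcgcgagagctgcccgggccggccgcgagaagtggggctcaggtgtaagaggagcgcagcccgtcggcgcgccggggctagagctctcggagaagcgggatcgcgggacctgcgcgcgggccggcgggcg
Pou4f2: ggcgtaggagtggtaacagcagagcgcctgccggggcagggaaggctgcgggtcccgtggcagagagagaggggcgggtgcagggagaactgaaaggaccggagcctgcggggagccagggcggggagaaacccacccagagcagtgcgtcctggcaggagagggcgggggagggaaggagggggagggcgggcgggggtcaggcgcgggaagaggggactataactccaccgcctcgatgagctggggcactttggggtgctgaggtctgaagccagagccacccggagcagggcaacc
Isl2: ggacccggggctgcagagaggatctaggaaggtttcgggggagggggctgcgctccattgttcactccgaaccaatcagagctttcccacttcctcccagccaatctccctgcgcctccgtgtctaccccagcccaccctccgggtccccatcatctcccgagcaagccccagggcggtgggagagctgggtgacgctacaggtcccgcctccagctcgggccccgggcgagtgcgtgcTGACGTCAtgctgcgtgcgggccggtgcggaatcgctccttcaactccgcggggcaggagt
Pou4f1 held 1 match to CAGCTG at bases 133 to 138 of its window, a motif found in 16.3% of the 32851 promoter windows of this length. Other forms of the E-box were not searched. Isl2 held 1 cAMP response element at bases 240 to 247, just before the start site, a motif found in 1.79% of windows. The Pou4f2 window held none of the 4 motifs. TAATTA, found in 5.29% of windows, and TATAAA, found in 13.6%, were in none of the 3. GC content was 78.3% for Pou4f1, 69.7% for Pou4f2 and 67.3% for Isl2, against a median of 52.7% over all windows. The other windows given for these genes, those of Sncg and Opn4, had 61.3% and 53.7% GC and no match. By location in the GENCODE M21 annotation, 5 of the 10 markers (Pou4f1, Sncg, Nefl, Nefm and Opn4) lie on chromosome 14, which holds 3.45% of the genes tested. Nefl and Nefm overlap on opposite strands in that annotation, as do Opn4 and the antisense gene Gm49012, and without a statement that counting used strand their reads may not be told apart.

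Some libraries stood apart. Light damage replicates 1 and 2 had 17174 and 20414 counts of Xist, the noncoding RNA of the inactive X chromosome, against 1 to 6 counts in light damage replicates 3 to 5 and 1 to 9 in the controls. The same libraries had 7520 and 4015 CPM (counts scaled to library size with TMM factors) summed over 9 lens genes, against 21.4 to 118 CPM in light damage replicates 3 to 5 and 3.28 to 31.4 CPM in the controls. Total counts were 17900227 to 20337329 in light damage and 14652535 to 20699236 in control libraries. Control replicate 1 was the highest control for 8 of the 10 ganglion cell markers, all except Opn4 and Isl2. Of 19 gene lists, summed CPM in control replicate 1 exceeded the other controls in 5. Besides the 10 markers these were 20 further ganglion cell markers (1817 CPM, against 1429.7 to 1604 CPM in the other controls), axon cytoskeleton (5345 CPM, against 4924 to 5327 CPM), microglia (91.2 CPM, against 65.1 to 82.3 CPM) and lens (31.4 CPM, against 3.28 to 24.2 CPM). Its sum lay inside the range of the other controls for the remaining lists, amacrine, rod and Müller glial markers among them. The part of these cells in the results was not tested.

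None of the 10 ganglion cell markers passed the test between light-damaged and control retina. At an adjusted p under 0.05 by edgeR's quasi-likelihood test 0 of 10 were called, against 13.2% of all 16852 genes tested. DESeq2 and limma-voom called 0 as well, against 18.0% and 11.9% of the genes they tested. Thy1 alone had an unadjusted p under 0.05, which 30.3% of all genes reached. Fold changes were small and mostly above 0, at 8 of 10 markers, against 50.3% of all genes. Their median log2 fold change was 0.09, against 0.0016 over all genes tested. The 95% intervals of the fold change ran from 0.804-fold at the lowest, for Opn4, to 1.28-fold at the highest, for Isl2, so larger falls or rises lay outside the interval of every marker. In no marker were the groups free of overlap, a state found in 9.79% of all genes (4.31% with light damage higher). In whole retina, a change in the number of ganglion cells and a change in RNA per cell cannot be told apart.

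**Figure D1:**
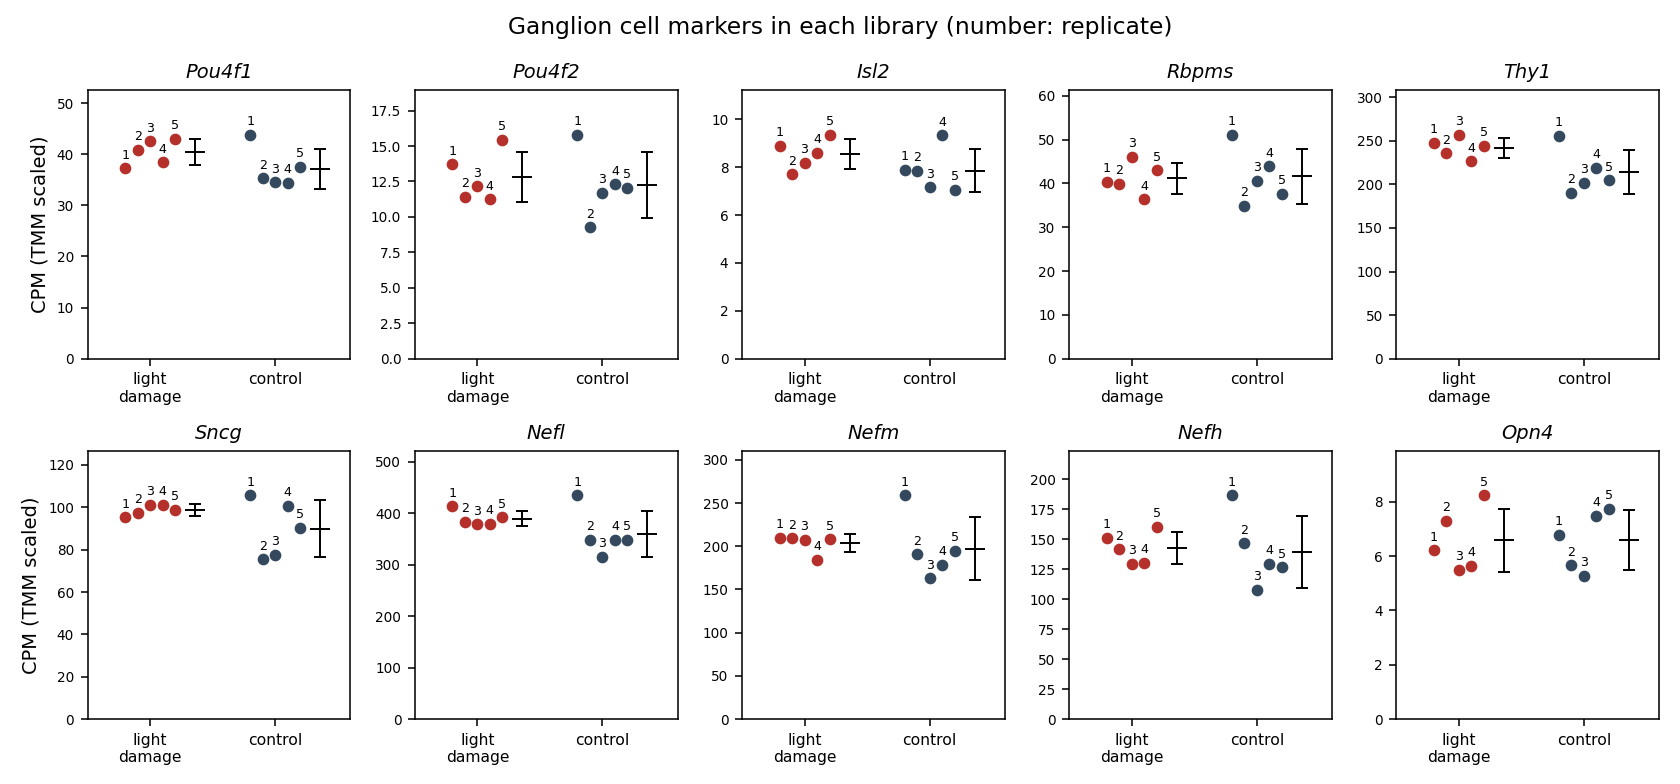
CPM (TMM scaled, linear axis from 0) of each ganglion cell marker in the 5 light damage and 5 control libraries. Points are libraries with their replicate number, and bars give mean and SD. The groups overlap in all 10 panels, and control replicate 1 is the highest control in 8 of them.

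The transcription factors overlapped between the groups. Pou4f1 (ENSMUSG00000048349), which marks most ganglion cells, had 37.2, 40.8, 42.5, 38.4 and 43.0 CPM in light damage replicates 1 to 5, against 43.8, 35.3, 34.5, 34.4 and 37.6 CPM in control replicates 1 to 5. Control replicate 1 was the highest library of all, 3 of the other controls lay below every light damage library and control replicate 5 lay among them. The log2 fold change was 0.12 (edgeR adjusted p = 0.288, SE 0.08). Pou4f2 (ENSMUSG00000031688), needed for ganglion cell differentiation and axon growth, had 13.7, 11.4, 12.2, 11.2 and 15.4 CPM in light damage, against 15.8, 9.26, 11.7, 12.3 and 12.1 CPM in control. The highest and the lowest library were both controls. Its log2 fold change was 0.06 (edgeR adjusted p = 0.788, SE 0.13). Isl2 (ENSMUSG00000032318), which marks ganglion cells that project to the opposite side of the brain, had 8.89, 7.70, 8.19, 8.58 and 9.35 CPM in light damage, against 7.89, 7.85, 7.16, 9.32 and 7.06 CPM in control. Here control replicate 4, and not replicate 1, was the highest control. The log2 fold change was 0.12 (edgeR adjusted p = 0.489, SE 0.11).

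Among the general markers, Thy1 came closest to the threshold and Rbpms showed almost no difference. Thy1 (ENSMUSG00000032011) had 247, 236, 257, 226 and 244 CPM in light damage replicates 1 to 5, against 256, 190.2, 201, 219 and 205 CPM in control replicates 1 to 5. Each light damage library exceeded controls 2 to 5, and 1 of them exceeded control replicate 1. It had a mean of 242 ± 11.6 CPM over light damage libraries against 214 ± 25.3 CPM over controls (SD, 5 libraries each), a log2 fold change of 0.18 (edgeR adjusted p = 0.114, SE 0.07). Markers of T cells, another source of Thy1 in the mouse, were near the limit of detection. Their 7 genes summed to between 1.22 and 2.48 CPM in light damage, against between 0.643 and 1.64 CPM in control. Cd3e had a count of 0 in every library, while Cd8a had 4 to 13 counts in light damage against 2 to 6 in control. Lck, the only one to pass the filter, had a log2 fold change of 0.48 (edgeR adjusted p = 0.311, SE 0.31). The part of T cells in the Thy1 values was not tested. Rbpms (ENSMUSG00000031586) had 40.4, 40.0, 46.0, 36.3 and 43.0 CPM in light damage, against 51.1, 34.9, 40.5, 43.9 and 37.7 CPM in control. The light damage values lay inside the range of the controls. The mean was 41.1 ± 3.60 CPM over light damage libraries against 41.6 ± 6.27 CPM over controls (SD, 5 libraries each), and the log2 fold change was -0.018 (edgeR adjusted p = 0.917, SE 0.09). Sncg (ENSMUSG00000023064) had 95.2, 97.3, 101, 101 and 98.7 CPM in light damage, against 106, 75.4, 77.6, 101 and 90.3 CPM in control. The light damage libraries were close together and the controls spread around them. Its log2 fold change was 0.13 (edgeR adjusted p = 0.284, SE 0.08).

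Nefl had the highest CPM of the set, and in all 3 neurofilament genes control replicate 1 was the highest library. Nefl (ENSMUSG00000022055), the core chain of the filament, had 414, 384, 379, 379.5 and 392 CPM in light damage, against 435, 349, 315, 348 and 348 CPM in control. All light damage libraries lay above controls 2 to 5 and below control replicate 1. Its log2 fold change was 0.12 (edgeR adjusted p = 0.306, SE 0.07). Nefm (ENSMUSG00000022054), the medium chain, had 209.6, 209, 208, 184 and 208 CPM in light damage, against 259, 191, 163, 179 and 195 CPM in control. Light damage replicate 4 was the low library of its group, and control replicate 1 exceeded every other library. The log2 fold change was 0.047 (edgeR adjusted p = 0.791, SE 0.10). Nefh (ENSMUSG00000020396), the heavy chain of mature large axons, had 151, 142, 129.6, 130.0 and 161 CPM in light damage, against 187, 146, 108, 129 and 127 CPM in control. The controls held both the highest and the lowest library. Its log2 fold change was 0.032 (edgeR adjusted p = 0.896, SE 0.13).

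Opn4 (ENSMUSG00000021799) had the lowest level and an almost equal mean in both groups. Its libraries had 6.21, 7.29, 5.49, 5.65 and 8.24 CPM in light damage, against 6.79, 5.66, 5.26, 7.48 and 7.74 CPM in control, from between 88 and 148 counts each. Both groups covered nearly the same range. The mean was 6.57 ± 1.17 CPM over light damage libraries against 6.59 ± 1.10 CPM over controls (SD, 5 libraries each), and the log2 fold change was -0.0015 (edgeR adjusted p = 0.996, SE 0.15). The 95% interval of the fold change ran from 0.804 to 1.24.

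**Figure D2:**
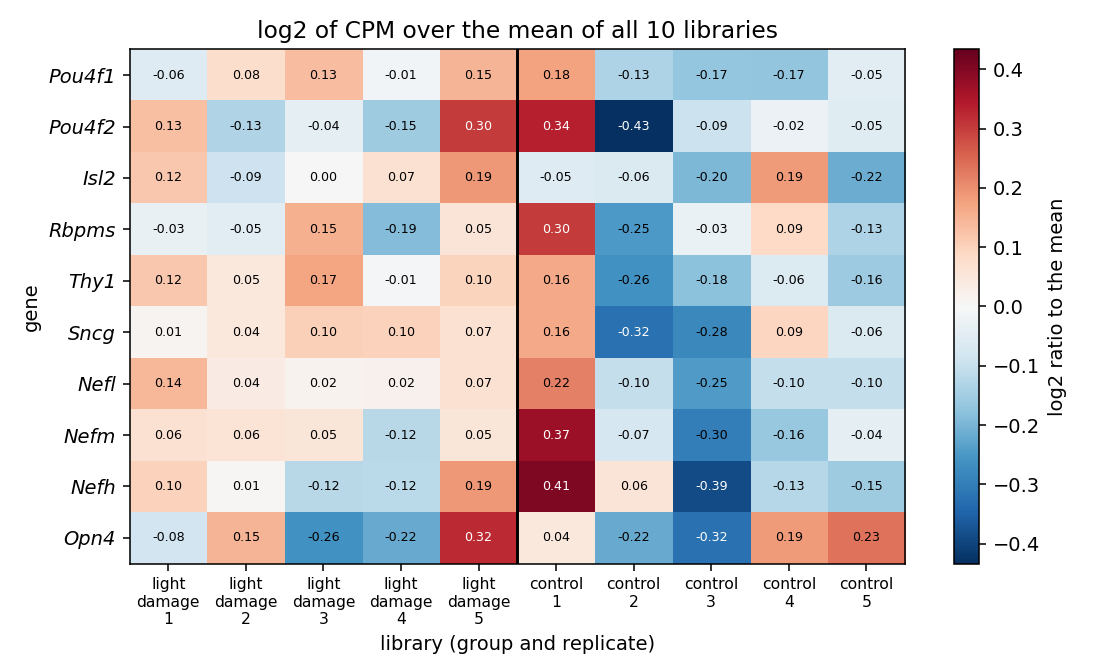
Each cell gives log2 of a marker's CPM over its mean in all 10 libraries, with light damage libraries left of the black line and controls right of it. Control replicate 1 is above the mean for all markers except Isl2, and control replicate 3 is below it for all 10.

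Control replicate 1 lay above the mean of all 10 libraries for 9 of the 10 markers and light damage replicate 5 for 10 of 10. Control replicates 2 and 5 did so for 1 marker each and control replicate 3 for 0. Markers varied together from library to library. Over the 10 libraries, Pearson correlations of log2 CPM between the 45 pairs of markers ran from 0.11 to 0.90 with a median of 0.57, and after subtracting group means the median was also 0.57. These values are a description, since all genes of a library share its scaling and tissue sample. The 3 neurofilament pairs were the 3 highest, at 0.90, 0.89 and 0.86. After subtracting group means Rbpms with Thy1 was the highest pair, at 0.95, followed by the neurofilament pairs at 0.94, 0.92 and 0.89. Opn4 and Isl2 followed the rest least, with correlations of 0.41 and 0.40 to the mean of the other markers, against 0.67 to 0.86 for the remaining 8.

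Without control replicate 1, 3 of the 10 markers rose in light damage and 0 fell, against 7.91% of genes that rose in that fit and 17.6% called in either direction. Control replicate 1 was the highest control for 8 of the markers, so leaving it out by itself raises their fold changes. No library was singled out in this way for the genes behind the shares over all genes. In Thy1 and Nefl all 5 light damage libraries exceeded control replicates 2 to 5, as they did in 7.64% of genes. Thy1 then had a log2 fold change of 0.25 (edgeR adjusted p = 0.0103, SE 0.06). Nefl had 0.20 (edgeR adjusted p = 0.0289, SE 0.06) and Pou4f1 0.19 (edgeR adjusted p = 0.0494, SE 0.06) in the same edgeR fit. The median over the 10 markers was 0.17, against 0.012 over all genes. Each of the other 9 fits that left out 1 library called 0 markers. Without light damage replicates 1 and 2, the libraries with high Xist and lens counts, 0 markers were called, against 2.34% of genes in that fit (0.782% higher), and the median over the markers was 0.09. Whether control replicate 1 or the other controls better represent undamaged retina was not tested.

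**Figure D3:**
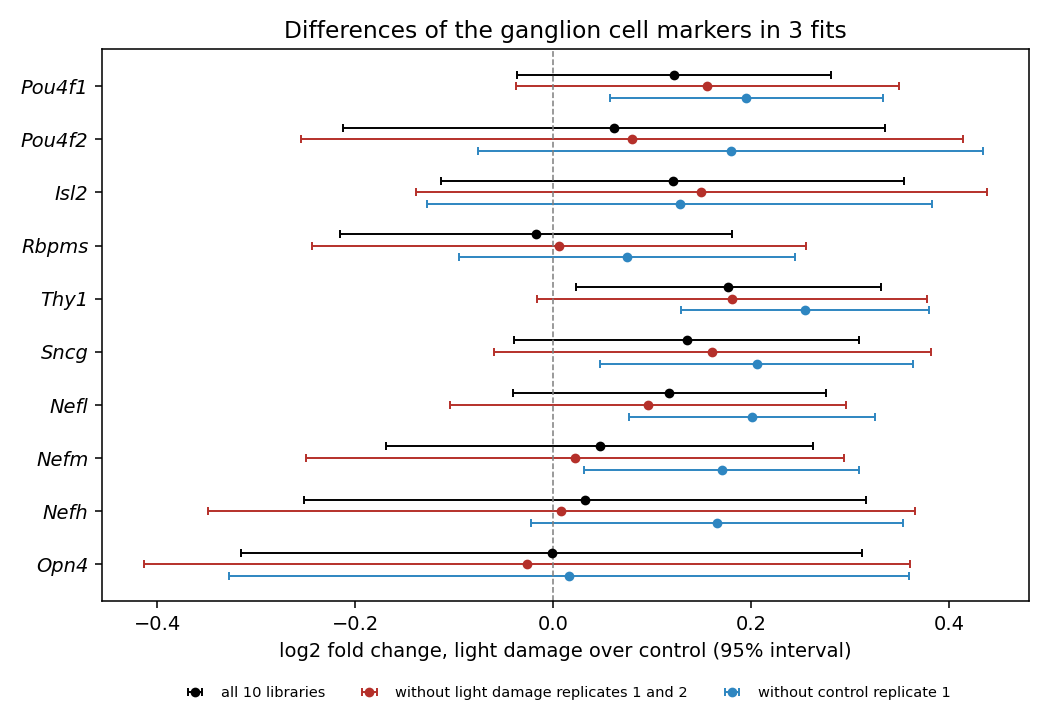
Points are log2 fold changes of light damage over control with 95% intervals, for all 10 libraries (black), without light damage replicates 1 and 2 (red) and without control replicate 1 (blue). With all libraries only the interval of Thy1 lies above 0, while without control replicate 1 those of Pou4f1, Thy1, Sncg, Nefl and Nefm do. Control replicate 1 was the highest control for each of these genes.

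Ratios of 2 genes within a library do not depend on how libraries are scaled, and 4 were compared. The ratio of Rbpms to Thy1 was lower in light damage. Its log2 values were -2.61, -2.56, -2.48, -2.64 and -2.50 in light damage replicates 1 to 5, against -2.32, -2.45, -2.31, -2.32 and -2.44 in control replicates 1 to 5. All 5 light damage libraries lay below all 5 controls, control replicate 1 included, although the nearest values were close. The means were -2.56 ± 0.07 in light damage and -2.37 ± 0.07 in control (SD, n = 5 each). The difference was -0.19 on the log2 scale (exact two-sided permutation p = 0.00794, the smallest that 5 against 5 allows, and 0.0317 adjusted over the 4 ratios). Of the 10 markers Rbpms had the lowest log2 fold change, -0.018, and Thy1 the highest, 0.18, so no other pair was further apart. The adjustment covers the 4 ratios and not the 45 possible pairs, so the adjusted p does not allow for a choice of the most unlike pair. For scale, the groups did not overlap in 9.79% of single genes, and the share of gene pairs whose ratio separates was not computed. A ratio shows unequal change of a pair of genes and not which of them changed. Without light damage replicate 1 alone the difference was -0.18, and without replicate 4 alone -0.17, with an adjusted p of 0.0635 by the exact permutation test in both. Without light damage replicates 1 and 2 it was -0.17, and 3 against 5 libraries leave no room for a call, since the smallest exact permutation p is 0.0179, or 0.0714 when 1 of 4 ratios reaches it.

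The neurofilament chains and the POU factors kept ratios that overlapped between groups. The log2 ratio of Nefm to Nefl averaged -0.94 ± 0.07 in light damage and -0.88 ± 0.09 in control, and that of Nefh to Nefl -1.45 ± 0.11 in light damage and -1.38 ± 0.14 in control (SD, n = 5 each). Both had an adjusted p of 0.444 by the exact permutation test. Pou4f1 to Pou4f2 averaged 1.67 ± 0.19 in light damage and 1.62 ± 0.19 in control (SD, n = 5 each, adjusted p = 0.643 by the exact permutation test).

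**Figure D4:**
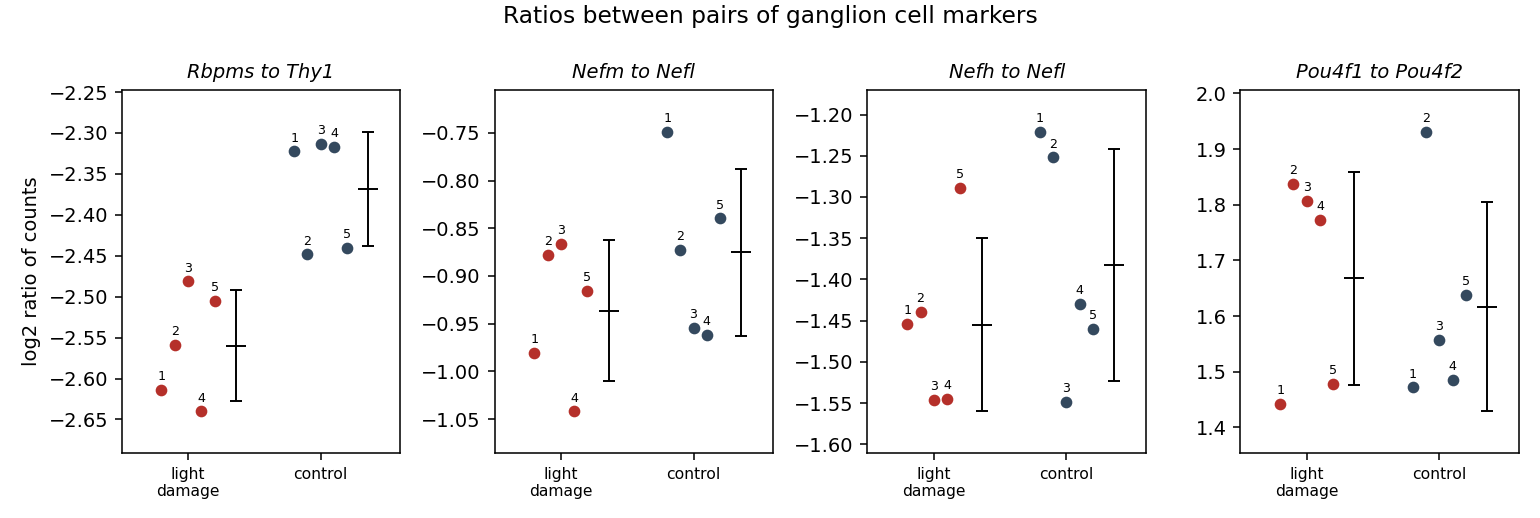
Log2 ratios of the counts of 2 markers in each library, with mean and SD bars, light damage left of control in each panel. Rbpms to Thy1 lies between -2.64 and -2.48 in light damage and between -2.45 and -2.31 in control, while the other 3 ratios overlap.

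Levels were set side by side as CPM per kilobase of the longest annotated transcript. Averaged over all 10 libraries Thy1 was highest with 131 ± 13.7 CPM per kilobase, then Nefl with 111 ± 10.4 and Sncg with 111 ± 12.0 (SD, n = 10). Nefm had 54.5 ± 6.99, Nefh 35.3 ± 5.47, Rbpms 16.2 ± 1.90 and Pou4f1 8.72 ± 0.802 CPM per kilobase. At the low end stood Isl2 with 4.42 ± 0.443, Pou4f2 with 3.90 ± 0.615 and Opn4 with 3.05 ± 0.495 CPM per kilobase. Nefl and Sncg could not be ordered, since Nefl was above Sncg in 5 of 10 libraries. Isl2 was above Pou4f2 in 9 of 10, with a lowest ratio of 0.864, and no test of this order was made. Every other neighbour in the order kept its place in 10 of 10 libraries, the narrowest margin being Pou4f2 over Opn4 at 1.05-fold.

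Other genes of the ganglion cell gave few calls. Of 20 further markers of ganglion cells or their subtypes 2 rose and 0 fell, against 5.32% of all genes that rose and 7.85% that fell. The median log2 fold change of the list was 0.11. Cartpt, a neuropeptide precursor of direction-selective ganglion cells, had 69.5, 67.2, 71.7, 71.2 and 66.7 CPM in light damage, against 59.2, 52.0, 52.2, 57.8 and 57.8 CPM in control. The groups did not overlap, and the log2 fold change was 0.31 (edgeR adjusted p = 0.00346, SE 0.06), or 0.33 without light damage replicates 1 and 2 (edgeR adjusted p = 0.0341). Chrna6, a nicotinic receptor subunit, had a mean of 139 ± 4.10 CPM over light damage libraries against 119 ± 8.44 CPM over controls (SD, 5 libraries each). Its log2 fold change was 0.23 (edgeR adjusted p = 0.0159, SE 0.06), and 0.22 without light damage replicates 1 and 2 (edgeR adjusted p = 0.117). Tubb3, the neuronal beta-tubulin widely used to stain ganglion cells, had a log2 fold change of 0.19 (edgeR adjusted p = 0.062), and Jam2, an adhesion molecule of a ganglion cell subtype, -0.19 (edgeR adjusted p = 0.064). Tubb3 passed without control replicate 1 (edgeR adjusted p = 0.0337) and Jam2 without control replicate 3 (edgeR adjusted p = 0.0266). Without control replicate 1, 8 of the 20 rose, against 7.91% of all genes in that fit. That control had the highest summed CPM of the controls for this list, so leaving it out tends to raise the fold changes.

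Of 20 transcription factors of ganglion cell birth, fate and subtype 19 were tested, 2 rose and 1 fell, against 5.32% and 7.85% of all genes, a share called that is near the 13.2% over all genes. The median log2 fold change was 0.02. Without light damage replicates 1 and 2 edgeR called 0 of the 19, against 2.34% of all genes, and the median was 0.04. Irx6, a homeobox gene that also marks a bipolar cell type, had a log2 fold change of 0.34 (edgeR adjusted p = 0.0239, SE 0.09). Isl1, shared with bipolar and amacrine cells, had 0.19 (edgeR adjusted p = 0.0479, SE 0.06). Sox12 fell by 0.28 on the log2 scale (edgeR adjusted p = 0.0289, SE 0.08). Satb1 had a log2 fold change of -0.18 (edgeR adjusted p = 0.129). Irx6 was not called without light damage replicate 1, light damage replicate 3 or control replicate 2, 3 of the 10 libraries, with adjusted p up to 0.0729 by edgeR and log2 fold changes from 0.27 to 0.38 over the 10 fits. Sox12 lost its call in 7 such fits, every one except those without light damage replicate 5, control replicate 1 or control replicate 2, with adjusted p up to 0.0796 by edgeR and log2 fold changes from -0.34 to -0.22. Isl1 lost its call in 8, every one except those without light damage replicate 4 or control replicate 5, with adjusted p up to 0.113 by edgeR and log2 fold changes from 0.18 to 0.24. Atoh7, which commits progenitors to the ganglion cell fate, did not pass the filter, with 2 to 12 counts in light damage and 2 to 10 in control.

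Of the ganglion cell lists, that of the axon cytoskeleton held the most calls. Of 20 genes for tubulins, filaments, microtubule and axon proteins and the other synucleins, 4 rose and 1 fell, against 5.32% and 7.85% of all genes, with a median log2 fold change of 0.11. Of these genes 6 are in the previous marker list as well, and most are made by all neurons. Tubb2a, a beta-tubulin, had 178, 183, 187, 173 and 179.7 CPM in light damage, against 152, 141, 150.0, 146 and 160.1 CPM in control. The groups did not overlap, and the log2 fold change was 0.27 (edgeR adjusted p = 0.00577, SE 0.05). Basp1, a membrane protein of growth cones, had a log2 fold change of 0.32 (edgeR adjusted p = 0.016, SE 0.08). Tuba1a, an alpha-tubulin, had 0.22 (edgeR adjusted p = 0.0174, SE 0.06). Map1b, a microtubule-associated protein of growing axons, had a mean of 605 ± 43.0 CPM over light damage libraries against 723 ± 81.3 CPM over controls (SD, 5 libraries each) and fell by 0.26 on the log2 scale (edgeR adjusted p = 0.0396, SE 0.08). Sncb, beta-synuclein, named after its values were seen, had a log2 fold change of 0.19 (edgeR adjusted p = 0.0444).

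Leaving out 1 library ended some of these calls while the fold changes kept their direction. Tuba1a had a log2 fold change of 0.21 without light damage replicate 1 and was not called (edgeR adjusted p = 0.0519). Map1b lost its call in 6 of 10 fits, those without light damage replicates 1 to 4 or control replicates 2 or 3, with adjusted p up to 0.102 by edgeR and log2 fold changes from -0.29 to -0.19 over the 10 fits. Sncb lost its call in 9, every one except that without control replicate 1, with adjusted p up to 0.0993 by edgeR and log2 fold changes from 0.17 to 0.23. Without control replicate 1, 9 of the 20 genes rose and 1 fell, against 7.91% of all genes that rose in that fit and 17.6% called in either direction. That control had, by a narrow margin, the highest summed CPM of the controls for this list too. Without light damage replicates 1 and 2 edgeR called 0 of the 20, against 2.34% of all genes, and the list's median log2 fold change was 0.12. In that fit Tubb2a had a log2 fold change of 0.27 (edgeR adjusted p = 0.0593), Basp1 0.31 (edgeR adjusted p = 0.105) and Map1b -0.27 (edgeR adjusted p = 0.157).

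Genes of the melanopsin cells and of the response to axon injury gave little. Of 15 genes of photosensitive ganglion cells and the melanopsin cascade 1 rose, Irx6, and 0 fell, against 5.32% and 7.85% of all genes. Their median log2 fold change was 0.07. Trpc7, a channel opened by melanopsin signaling, had 0.33 (edgeR adjusted p = 0.122), the pacemaker channel Hcn4 0.22 (edgeR adjusted p = 0.196) and the peptide gene Nmb -0.66 (edgeR adjusted p = 0.0512). Nmb passed without light damage replicate 5, at an adjusted p of 0.0239, and without control replicate 2, by edgeR. Of 20 injury-response genes 18 were tested and edgeR called 0 in the reported fit, against 13.2% of all genes. An unadjusted p under 0.05 was reached by 3 of them, against 30.3% of all genes. Limma-voom called 0, against 11.9% of all genes, and DESeq2 called 1 higher and 2 lower, against 18.0% of all genes. In edgeR, 1 gene was called lower with upper quartile scaling, with the non-robust fit and with the replicate number as a block. Of all 16852 genes, 1351, 1277 and 1854 were called lower in these fits, in that order. The same held with a filter of at least 1 CPM in at least 5 libraries, where 1351 of 15534 genes were called lower. Map3k13 and Map3k12, kinases that signal axon injury to the nucleus, had log2 fold changes of -0.21 (edgeR adjusted p = 0.0533) and -0.14 (edgeR adjusted p = 0.0649). Map3k12 had 88.0, 86.7, 86.2, 84.2 and 85.7 CPM in light damage, all below the controls, which had 96.9, 92.2, 92.8, 94.6 and 96.8 CPM. Chac1, a target of the integrated stress response, had 0.50 (edgeR adjusted p = 0.0632), and Sox11 -0.46 (edgeR adjusted p = 0.168). Chac1 passed without control replicate 1 (adjusted p = 0.0258), without light damage replicate 1, and without light damage replicates 1 and 2 (adjusted p = 0.0461), by edgeR. Map3k13 passed without control replicate 1 (adjusted p = 0.0351) and without light damage replicate 2, by edgeR.

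Lists of other retinal cells are given for scale. The median log2 fold change was 0.09 over the ganglion cell markers, 0.20 over 16 amacrine markers, of which 5 rose, and 0.19 over 9 horizontal cell markers, of which 2 rose. It was 0.24 over 12 bipolar markers and 0.37 over 12 Müller glial markers, of which 7 and 6 rose, and -0.14 over 13 rod markers, of which 1 rose and 1 fell. Of 10 cone markers 0 rose and 1 fell, and of 10 microglial markers 1 rose, with medians of -0.08 and 0.55. These counts stand against 5.32% of all genes that rose and 7.85% that fell. Without light damage replicates 1 and 2, where 0.782% of all genes rose, 2 amacrine, 0 horizontal, 4 bipolar and 1 Müller glial markers rose, with medians of 0.23, 0.18, 0.25 and 0.34. No test of the differences between lists was made. Summed over the 10 genes, ganglion cell markers made up 1122 to 1223 CPM in light damage, against 964 to 1083 CPM in control replicates 2 to 5, with 1367 CPM in control replicate 1. Summed rod markers overlapped, at 65998 to 91940 CPM in light damage, against 71262 to 114359 CPM in control. Oligodendrocyte genes, a sign of attached optic nerve in the mouse, summed to between 63.2 and 71.0 CPM in light damage, against between 58.7 and 67.8 CPM in control, with 60.5 CPM in control replicate 1.

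**Figure D5:**
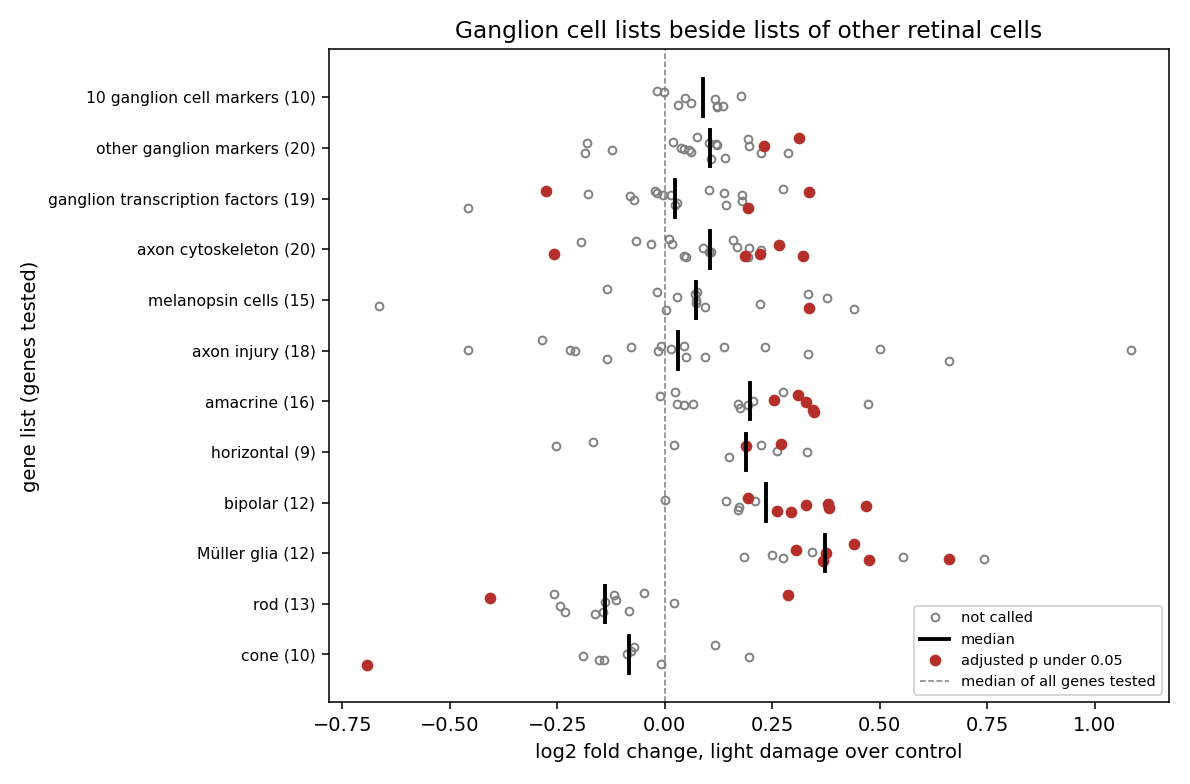
Log2 fold change of light damage over control for each gene of the ganglion cell lists and of lists for other retinal cells, with the number of genes tested in parentheses. Filled points passed at an adjusted p under 0.05 and black bars are medians. The 10 ganglion cell markers hold no filled point, and their median of 0.09 lies between that of the rod list, -0.14, and that of the Müller glial list, 0.37.

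The genes most like the ganglion cell markers were picked by Pearson correlation of log2 CPM with the mean of the centred log2 CPM of the 10 markers, over the 10 libraries and among 13509 genes. They were Cplx1, a complexin of the presynaptic terminal, with 0.96, and Ube2ql1, Dync1i2, an intermediate chain of dynein, Dpysl2, a microtubule-binding protein of axons, and Rwdd2a, each with 0.94. Cplx1 had a mean of 166 ± 9.30 CPM over light damage libraries against 159 ± 24.1 CPM over controls (SD, 5 libraries each). None of the 5 was called by edgeR, with adjusted p between 0.156 and 0.861. Cplx1 was also among the 20 further markers.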

How the data were processed

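The authors deposited 1 table of raw counts for all genes, with 10 columns matched to samples by library name. Bowtie2, RSEM 1.3.1, DESeq2 1.4.5 and GRCm39 appear in the submitters' processing notes with no role, and the sources used here do not say if counts are rounded RSEM estimates. Symbols came from GENCODE M21 (GRCm38), where 19892 identifiers matched, so only promoter windows have coordinates. Groups and replicate numbers came from the sample titles.

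Differences were fitted with edgeR 4.0.16 under R 4.3.3 (filterByExpr, TMM, robust quasi-likelihood test, Benjamini-Hochberg adjustment over all 16852 genes tested). Alternatives used limma 3.58.1, DESeq2 1.42.0, other scalings and filters, a replicate block and left-out libraries. Standard errors were derived from the F statistic, and a prior count of 2 was added for log2 CPM. No library pair agreed within sampling noise (lowest chi-square per degree of freedom 5.77 over 45 pairs). Steps were tested on simulated counts. Figures used matplotlib 3.10.9.

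The markers and lists were chosen with earlier results of these data known. Named genes are the 10 markers, the 4 lowest p of each other ganglion list, and the 5 genes most correlated with the markers.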

Additional observations from a re-analysis of the deposited data

Results flagged for a closer look

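Of 30 groups of 5 values looked at (the 10 markers, the 4 ratios and the markers' mean in each group), 2 held a library far from the rest, where chance gives about 1 group in 20. Nefm in light damage replicate 4 was 184 CPM, against 208 to 209.6 CPM in the other light damage libraries. Nefl in control replicate 1 was 435 CPM, against 315 to 349 CPM in the other controls. Without light damage replicate 4 Nefm was not called, and without control replicate 1 Nefl was called higher in light damage (adjusted p = 0.0289 by edgeR).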

How the results depend on the processing

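All 10 markers stayed uncalled under DESeq2, limma-voom, the other scalings and filters, the non-robust fit and without the high-Xist libraries. Leaving out 1 library gave 0 to 3 calls among them, 3 without control replicate 1, and a median log2 fold change between 0.06 and 0.17. Over all genes 2219 were called, 403 without light damage replicates 1 and 2 (fewer samples), and 1127 to 2991 when 1 library was left out, the lowest without light damage replicate 3 and the highest without control replicate 1. Of the genes called, 40.4% were higher in light damage as reported and 55.7% with library totals alone, where the median of all genes was 0.029. Without light damage replicates 1 and 2 the ratio of Rbpms to Thy1 differed by -0.17, where 3 against 5 libraries cannot give an adjusted p under 0.0714 for 1 ratio of 4, and when 1 library was left out by -0.21 to -0.17. Log2 fold changes near 0 changed sign, and the cause was not tested. Rbpms was at 0.013 with library totals alone and 0.0060 without the high-Xist libraries. Opn4 was at 0.00031 with DESeq2, 0.028 with library totals alone and 0.0074 without a filter. With 1 library left out, Rbpms ran from -0.075 to 0.074, Opn4 from -0.095 to 0.063, Pou4f2 from -0.023 to 0.18, Nefm from -0.014 to 0.17 and Nefh from -0.047 to 0.17. Deviations of same-numbered libraries from their group means had a correlation of 0.316 for replicate 3 and of 0.052 to 0.071 for the others. The same-numbered control was the closest control for replicates 3 and 4 only. The titles give replicate numbers and no pairing, so the reported fit did not use pairs, and pairing was not excluded. With the replicate number as a block, 1 marker was called, Thy1 (adjusted p = 0.0423 by edgeR), 3285 genes were called, and the Rbpms to Thy1 difference of -0.19 could not pass with 5 pairs (adjusted p = 0.25, exact sign-flip test). Opn4 had an SE of 0.15 from 88 to 148 counts per library and Nefh an SE of 0.13 from 1848 to 3712 counts.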

Other observations

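Sprr1a and Ecel1, genes known to rise in injured ganglion cells in the mouse, did not pass the filter on low counts and are named after their values were seen. Sprr1a had 0, 28, 11, 0 and 0 counts in light damage replicates 1 to 5, against 64, 0, 4, 0 and 0 counts in control replicates 1 to 5. Ecel1 had 5, 34, 47, 3 and 9 counts in light damage, against 81, 8, 18, 1 and 2 counts in control. For both genes control replicate 1 had the highest count of all 10 libraries, with light damage replicates 2 and 3 next. Summed over the list of 20 injury-response genes, control replicate 1 had 804 CPM, inside the 758 to 825 CPM of the other controls. Abundant genes set that sum, with Atf4 alone at a mean of 264 ± 17.5 CPM over controls (SD, 5 libraries). The sum therefore cannot show a rise of genes with counts this low, and injury in that library was not tested.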
